A study of Bos taurus with 4 samples.

Results

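The MYC, MAX and MXD network genes were 9 in number (MXI1, MXD1, MXD3, MXD4, MAX, MYC, MYCN, MNT and MLX), and every array probe that carried one of these names was taken, which gave 16 probes of 51282 (the array holds 32429 gene names). Sperm RNA of Murrah buffalo (Bubalus bubalis) breeding bulls had been hybridized to a bovine array in 2 high-fertile and 2 low-fertile pools, each pool holding equal amounts of RNA from 2 bulls of the same conception rate class. All were breeding bulls, the labels name no treatment, age or genotype, and the sperm of all pools had been selected on Percoll before RNA isolation. Each pool was read on 1 array, so the pool was the replicate, and precision is limited by having 4 arrays. Buffalo RNA was read with probes designed on cattle transcripts, and a base difference between the species at a probe was not measured.

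Of the 16 probes, 3 were marked by the scanner software as well above background on all 4 arrays, 6 on some arrays and 7 on none. The 3 bright probes belonged to MXI1, MXD3 and MNT. MXI1 was chosen for its difference between the groups in these same arrays, so its values are a description and carry no test. Its bright probe read 2.51 log2 units lower in the low-fertile pools, while its other 2 probes stayed at background. Among the other 8 genes, 1 probe of MXD3 was higher in the low-fertile pools past an adjusted p of 0.05 in limma, where 26.8% of all tested probes passed in either direction. A second MXD3 probe did not pass, nor did the probes of MAX, MXD4 and MNT. MYC, MXD1 and MLX had no probe well above background on both pools of a group, and MYCN was measured in 1 pool.

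MAX is a small basic helix-loop-helix leucine zipper protein that binds E-box DNA as a dimer. MYC and MYCN bind DNA with MAX and activate genes of growth, ribosome production and metabolism. MXD1, MXI1 (also called MXD2), MXD3, MXD4 and MNT compete for MAX and repress the same E-boxes by recruiting SIN3 corepressors with histone deacetylases. MLX is a MAX-like protein that dimerizes with some MXD proteins, with MNT and with the glucose sensors MLXIP and MLXIPL. Mature sperm are transcriptionally quiet, so their transcripts are largely carried over from spermatids.

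The last 30 bases of 5 probes are shown because the 3 MXI1 probes and the 2 MXD3 probes read 1 transcript each and gave different values within it. They are the array's own probe sequences, 5′ to 3′, with runs of at least 4 A in capitals.
MXI1 A_73_P257516: ctatttcttcagatcgttctgattcagagc
MXI1 A_73_P060356: gatgatcaattctttatAAAAAggAAAAAA
MXI1 A_73_115267: gtagttttattttgtttagatagggctggg
MXD3 A_73_P084721: tctgcgcagggccagaatgcacatccagaa
MXD3 A_73_101212: cacgcatactgtattttcattAAAAgcctc

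The 3 MXI1 probes lie on the plus strand of chromosome 26 in Btau_3.1, the build of the array design, and are assigned to 1 RefSeq transcript. In the order of that transcript they are A_73_P257516 at chr26:31117951-31118010 (transcript position 827), A_73_P060356 at chr26:31125290-31125349 (position 1522) and A_73_115267 at chr26:31126332-31126391 (position 2564). Whether each one falls in coding sequence or in an untranslated part was not determined here. The middle probe, A_73_P060356, is the bright one, and it ends in 2 runs of A, the longer of 6 bases, a length reached by 3.01% of the probes on the array. No other probe on the array shared a stretch of 20 bases with any of the 16 network probes, on either strand.

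On the bright MXI1 probe, the processed signal, which is the spot intensity after background subtraction and detrending, was 198 and 230.0 in high-fertile pools 1 and 2 against 38.9 and 32.0 in low-fertile pools 1 and 2. The groups did not overlap, with both high-fertile values far above both low-fertile ones. After log2 transformation and subtraction of the 75th percentile of each array, the normalized signal had a high-fertile mean of 2.53 ± 0.14 (SD, n = 2 pools) and a low-fertile mean of 0.02 ± 0.07. The difference of -2.51 (log2, low minus high) selected the gene and is therefore not tested. Leaving out each pool in turn kept it between -2.61 and -2.41. Of the 12552 probes bright on all 4 arrays, 8 lay at or below that difference, this probe included.

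The probes on either side of it stayed near the floor of the scanner output. A_73_P257516 gave processed signals of 4.42 and 6.48 in the high-fertile pools against 15.1 and 9.15 in the low-fertile pools. On no array was it well above background, and on high-fertile pool 2 its value was a surrogate, a substitute that the software writes where a spot is not above background. Its normalized signals were -3.05 and -2.52 in the high-fertile pools against -1.30 and -1.83 in the low-fertile pools. These are only upper bounds on a level, so no fold or direction is given for them.

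A_73_115267, the last MXI1 probe in the transcript, held a surrogate value on all 4 arrays. Its processed signals were 3.43 and 3.52 in the high-fertile pools against 3.13 and 6.05 in the low-fertile pools, and the groups overlapped. No difference is given for these substitutes. The RNA had been copied from an oligo dT primer, which favours the 3′ end of a transcript, yet of the 3 MXI1 probes it was the middle one that gave signal.

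**Figure D1:**
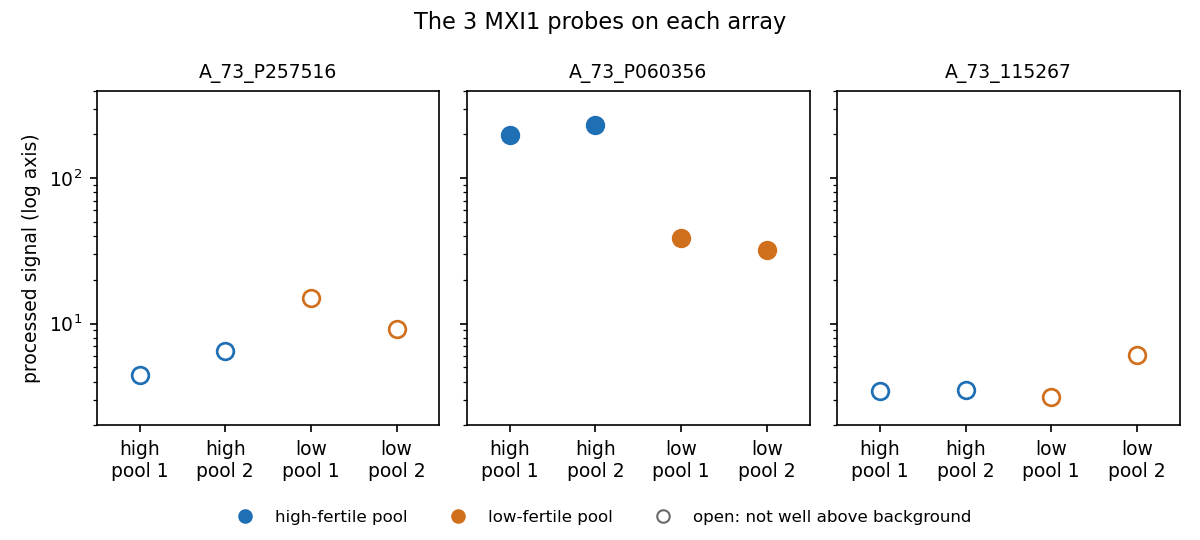
Processed signal (log axis) of the 3 MXI1 probes in transcript order on the 4 arrays, blue for high-fertile and orange for low-fertile pools, 1 point per pool. Filled points are well above background and occur on the middle probe only, where the high-fertile pools read 198 and 230.0 and the low-fertile pools 38.9 and 32.0.

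The GC content of the probes moved with the difference between the groups across the whole array, and the bright MXI1 probe was at the low end of it with 35% GC. Over all 21033 tested probes the median difference was -0.005, 17.6% passed as lower and 9.22% as higher in the low-fertile pools. Over the 1273 tested probes that also had 35% GC, the median difference was -0.87 and 54.3% passed as lower. Among the 444 of these that were bright on all 4 arrays the median was -0.31, and 2 probes reached the difference of the MXI1 probe, itself included. After the median of probes of equal GC content was subtracted on each array, a correction added after the data were seen, the MXI1 difference was -1.75. With the spike-in probes as the scale it was -2.89, and with normexp -1.50. How far GC content takes part in the MXI1 difference was not tested.

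MXD3, whose protein is found in proliferating cells, was the only one of the other 8 genes with a probe past the threshold. Its 2 probes lie on the minus strand of chromosome 7. A_73_P084721, at chr7:38089972-38092165, covers 2194 bases of the genome with a 60-base probe and so crosses at least 1 intron, which places it across an exon junction. Its normalized signals were -0.56 and -0.63 in the high-fertile pools against 0.05 and 0.12 in the low-fertile pools. The low-fertile pools were both higher, with no overlap, although low-fertile pool 2 was not marked as well above background. The difference was 0.68 (SE 0.14) with an adjusted p of 0.0223 in limma, adjusted over all tested probes. That call did not hold without high-fertile pool 1, without high-fertile pool 2 or without low-fertile pool 2. Such a fit leaves 1 pool in a group, so the other group alone gives the spread. The difference stayed between 0.64 and 0.71 when any pool was left out. On the spike-in scale it was 0.29 with an adjusted p of 0.126 in limma, and with normexp 0.25 with 0.0184.

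The other MXD3 probe, A_73_101212 at chr7:38089237-38089296, lies nearer the 3′ end of the transcript and was well above background on all 4 arrays. It read 1.74 and 1.36 in the high-fertile pools against 1.46 and 1.60 in the low-fertile pools. The pools of the groups overlapped, and the difference was -0.02 (SE 0.18) with an adjusted p of 0.937 in limma. The 2 probes of MXD3 thus gave different answers for the same transcript, and the difference between them was not tested. Their GC contents were 55% and 48.3%, and tested probes of the same GC content had medians of 0.23 and 0.04. With the GC correction the first probe's difference was 0.42 with an adjusted p of 0.0822 in limma. The nearest probe of another gene, 274 bases away on the opposite strand, was one of PRELID1.

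MXD4, a repressor of the same family, had 1 probe, at chr6:119341678-119341737 on the minus strand. It read -0.93 and -1.03 in the high-fertile group, while low-fertile pool 1 gave -0.20 and pool 2 gave -2.23. The 2 low-fertile pools lay on either side of both high-fertile pools, so no common direction was seen, and only low-fertile pool 2 was not well above background. The difference was -0.24 (SE 0.63) with an adjusted p of 0.800 in limma. Leaving out low-fertile pool 1 moved the difference to -1.25, and leaving out pool 2 of that group moved it to 0.78. Its direction was thus set by which low-fertile pool was kept. Each of these fits holds 1 low-fertile pool, so no p is given for them. The value of -1.25 rests on low-fertile pool 2, where the probe was not well above background.

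MXD1, the founding member of the family, was read by 2 probes on the plus strand of chromosome 11. A_73_P082761, at chr11:70221078-70222854, spans 1777 bases and also crosses an intron. It gave -0.85 and -1.14 in the high-fertile pools against -0.55 and -1.12 in the low-fertile pools, with pool 1 of each group well above background and the groups overlapping. The second probe, at chr11:70223996-70224055, held surrogate values on all 4 arrays. Neither was bright enough on both pools of a group to be tested.

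MNT, the MAX partner that is expressed in most cell types, was read by 1 probe. That probe, A_73_107701, is assigned to no chromosome in the array design, was printed as 2 spots and was well above background on all 4 arrays. The normalized signals were 2.80 and 2.72 in the high-fertile pools against 2.60 and 2.66 in the low-fertile pools. The low-fertile pools were both slightly lower, with no overlap, yet the difference of -0.13 (SE 0.14) had an adjusted p of 0.513 in limma. Of the alternatives tried it passed with the spike-in probes as the scale only, at -0.52 with an adjusted p of 0.0362 in limma, and that scale also moved the median of all tested probes to -0.39.

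MAX was read by 2 probes on the minus strand of chromosome 10. A_73_P032986, at chr10:79444501-79444560, gave 1.02 in high-fertile pool 1, -0.01 in high-fertile pool 2, and 0.03 and -0.04 in the low-fertile pools. High-fertile pool 1 was the one high value and the other 3 pools lay together. The difference was -0.51 (SE 0.34) with an adjusted p of 0.305 in limma, and it turned on the high-fertile pool kept. Without high-fertile pool 1 it was 0.0041, and without high-fertile pool 2 it was -1.02. The other probe, A_73_P130316 at chr10:79442540-79442599, comes from an expressed sequence tag. It read -0.46 and 0.02 in the high-fertile pools against -0.91 and -0.53 in the low-fertile pools, with no overlap, a difference of -0.50 (SE 0.23) and an adjusted p of 0.163 in limma. It passed with normexp (-0.20, adjusted p = 0.0466 in limma) and on the spike-in scale (-0.88, 0.0386). Its GC content was 38.3%, where tested probes had a median of -0.54, and with the GC correction its difference was -0.0074. Low-fertile pool 2 was not well above background on either MAX probe, so both met the filter through the high-fertile pools only. Calls on such probes carry less than others. A further 2 probes on the same strand carry transcript cluster names that the array describes as MAX proteins. Neither was detected on any array.

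The activators of the network were at or near background. MYC had 2 probes on the minus strand of chromosome 14, at chr14:12151710-12151769 and chr14:12151497-12151556, and neither was detected on any array. The first held a surrogate value on all arrays but high-fertile pool 1, and the second, with processed signals between 6.65 and 15.0, held none. The groups overlapped on both. MYCN, at chr11:84617501-84617560 on the minus strand, gave processed signals of 8.88 and 23.4 in the high-fertile pools against 10.9 and 5.95 in the low-fertile pools. High-fertile pool 2 was the 1 array where it was well above background. With 1 measured pool of 4, no fold is given.

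MLX, the MAX-like partner, was detected on no array with either of its 2 probes. The probe at chr26:32410264-32410687 crosses an intron and read -3.32 and -3.18 in the high-fertile pools against -2.60 and -2.27 in the low-fertile pools, all of them at background, with a surrogate value on pool 1 of the high-fertile group and pool 2 of the low-fertile group. The probe at chr26:32415183-32415242 gave groups that overlapped. Both were placed on chromosome 26 in Btau_3.1, whereas the RefSeq annotation of ARS-UCD2.0 has MLX on chromosome 19. The accessions of 14 of the 16 probes matched a RefSeq transcript of the same symbol.

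**Figure D2:**
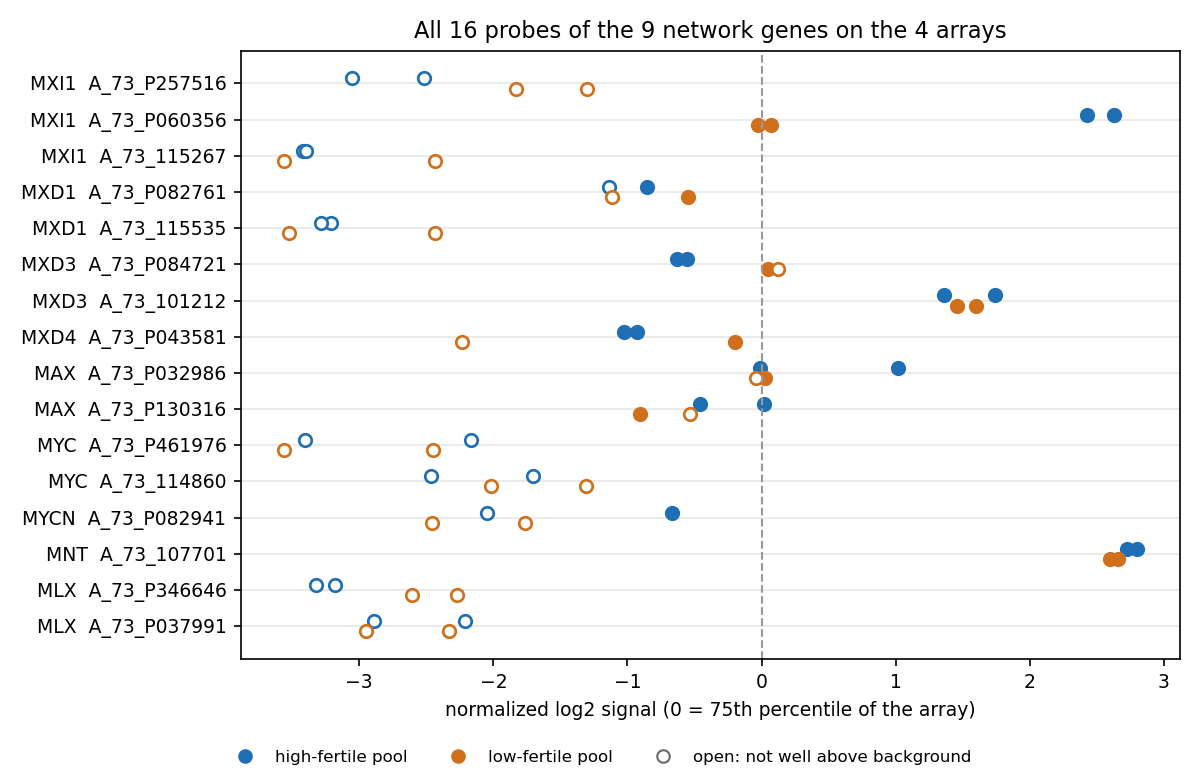
Normalized log2 signal (0 is the 75th percentile of the array) of the 16 probes of the 9 network genes, 1 point per pool, blue for high-fertile and orange for low-fertile, filled where well above background. MXI1 A_73_P060356, MXD3 A_73_101212 and MNT are filled in all 4 pools, and only the first of these has its groups far apart.

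Counted together, 6 of the 13 probes of the other 8 genes were bright enough on both pools of a group to be tested, from MXD3, MXD4, MAX and MNT. Of these 6, 1 passed an adjusted p of 0.05 in limma, where 26.8% of all tested probes passed. In 3 of the 6 the pools of the groups did not overlap, where 69.1% of all tested probes did not. The median difference of the 6 was -0.19, beside -0.005 over all tested probes. Of the 6, 5 were lower and 1 higher, where 50.4% of all tested probes were lower. The probes of MXD4 and MAX and MXD3 A_73_P084721 met the filter through the high-fertile pools only. That filter favours lower values in the low-fertile pools, so the count of lower probes carries less. The counts of network probes well above background were 8, 8 and 8 on the first 3 arrays and 3 on low-fertile pool 2. That array also had 13033 probes well above background in all, against 23228 to 25642 on the others, and the largest spread among its negative control spots (SD 109 against 3.95 to 24.8). Slide row and fertility group cannot be told apart, since each group filled arrays of its own row. Over those 12552 bright probes Pearson's r was 0.981 and 0.980 within the groups and 0.924 to 0.935 between them.

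**Figure D3:**
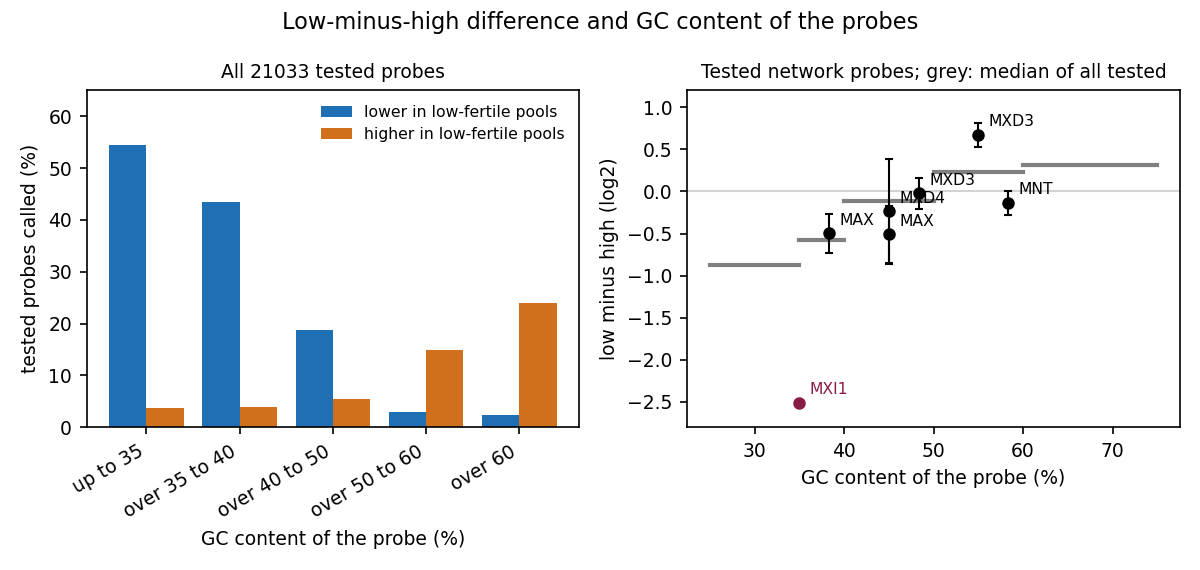
Left, share of all 21033 tested probes called lower or higher in the low-fertile pools at an adjusted p of 0.05, by GC content of the probe (%). Right, low-minus-high difference (log2) of the 7 tested network probes against GC content, with SE bars except for MXI1, which was chosen by this value, and grey lines for the median of all tested probes in each GC class. The MXI1 point lies at -2.51, below the grey line at -0.87, and the MXD3 probe at 0.68 lies above the line at 0.23.

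The 5 annotated genes whose pattern over the 4 arrays was nearest to that of the bright MXI1 probe were RPL39, OR5AR1, VCL, YBX1 and C18H16orf87, among 5793 candidates. The measure was the Euclidean distance between signals centred on each probe's mean over the 4 arrays. RPL39, a protein of the large ribosomal subunit, was nearest at a distance of 0.0657, and it read 3.67 and 3.92 in the high-fertile pools against 1.39 and 1.21 in the low-fertile pools. The others lay between 0.264 and 0.300. VCL encodes vinculin, an actin-anchoring protein of cell adhesions, OR5AR1 an olfactory receptor and YBX1 a nucleic acid binding protein. Their differences ran from -2.77 to -2.22 and their probes had 35% to 43.3% GC. With 4 arrays, any gene low in both low-fertile pools by a like amount is near, so the ranking describes these arrays only.

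Around the network, 4 lists of genes were counted by the brightest tested probe of each gene. Of 61 genes tested, 14 fell, 4 rose and 43 did not pass. The filter bears on these counts: 16 of the 61 genes entered the test through the high-fertile pools only, where they were well above background, and 7 of the 14 that fell are among them, so their calls carry less than the others. Of the 45 genes well above background in all pools, 7 fell and 4 rose. The 18 calls went to 10 without high-fertile pool 1 and to 9 without high-fertile pool 2. With no filter 0 passed in limma (19 of 87 genes had an unadjusted p under 0.05). With the methods' t-test 0 passed after adjustment (20 of 61). No probe of the whole array passed in either setting. Over all 16367 genes tested the same rule called 16.4% lower and 9.62% higher, and the median difference was 0.01. The median over the lists was -0.12. In GC content the probes of the 14 genes called lower ran from 35% to 45% and those of the 4 called higher from 45% to 55%. With the GC correction 12 genes passed in all.

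Of the other network proteins, MLXIPL and MYCL1 were tested, and neither passed by its brightest probe. MLXIPL, the glucose-responsive partner of MLX, read 0.33 and 0.00 in the high-fertile pools against 0.41 and 0.69 in the low-fertile pools, a difference of 0.39 with an adjusted p of 0.190 in limma. MYCL1, the third MYC family gene, had a difference of 0.39 with an adjusted p of 0.279, and low-fertile pool 2 was not well above background. A second MYCL1 probe, not well above background in either low-fertile pool, went the other way. It read 1.24 and -0.84 in the high-fertile group against -2.98 and -1.86 in the low-fertile group. No p is given for it, since it met the filter through the high-fertile pools only. MLXIP and MGA were well above background on 1 array each.

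Among the corepressor and coactivator partners, 2 of 15 tested genes fell and 2 rose, with a median of -0.28, and 11 of the 15 were well above background in all pools (1 fell, 2 rose). SIN3A, the scaffold through which MXD proteins repress, read -0.02 and 0.00 in the high-fertile pools against -0.49 and -0.76 in the low-fertile pools. Both low-fertile pools were lower, with a difference of -0.61, and no p is given since it met the filter through the high-fertile pools only. HDAC1, a histone deacetylase of the SIN3 complex, read 2.95 and 2.91 against 2.23 and 2.43, and it fell by 0.60 with an adjusted p of 0.0391 in limma. The 2 that rose act with MYC. WDR5, which holds MYC on chromatin, rose by 0.91 (adjusted p = 0.0224 in limma) and the acetyltransferase KAT5 by 0.73 (0.0296).

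Of the genes that control MYC protein turnover, 2 of 14 fell, 12 did not pass, and the median was -0.13. GSK3B, the kinase that marks MYC for degradation, read 0.64 and 0.50 in the high-fertile pools against -0.36 and -0.48 in the low-fertile pools. It too met the filter through the high-fertile pools only, so no p is given.

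The well-known MYC target genes gave 10 that fell and 2 that rose among 30 tested, with a median of -0.16, beside 16.4% lower and 9.62% higher over all genes. Of the 21 that were well above background in all pools, 5 fell and 2 rose. The 5 (ODC1, CCND2, NPM1, HSPE1 and PTMA), named after their values were seen, had differences between -1.13 and -0.69. The other 5 that fell came from 9 genes that met the filter through the high-fertile pools only. LDHA, the glycolytic lactate dehydrogenase, read 1.90 and 1.95 in the high-fertile pools against -0.42 and -0.11 in the low-fertile pools. The difference was -2.20, but LDHA met the filter through the high-fertile pools only and no p is given. HSPD1, the mitochondrial chaperonin, and GNL3, the nucleolar protein nucleostemin, entered the test only through the high-fertile pools, where they were well above background. In the low-fertile pools neither HSPD1 nor GNL3 was well above background, so no fold is given for them. MRTO4, a ribosome assembly factor, rose by 1.04 (adjusted p = 0.00647) and EIF4A1, a translation helicase, by 0.54 (0.0491), although the 2 tested probes of EIF4A1 differed in sign. These genes have many regulators besides MYC, and no value here ties them to it.

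**Figure D4:**
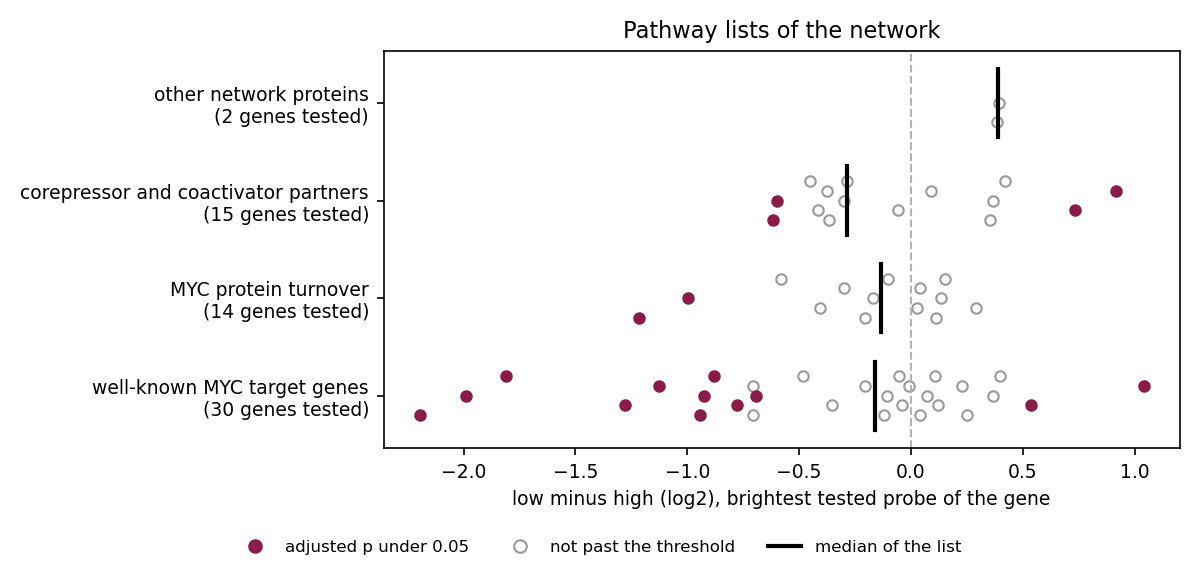
Low-minus-high difference (log2) of each tested gene in the 4 lists, by its brightest tested probe, filled where the adjusted p was under 0.05, with a black bar at the median of the list. The MYC target genes reach from -2.20 for LDHA to 1.04 for MRTO4, and their median lies at -0.16.

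The labelled cell type was read through its markers on the same arrays. Of 18 sperm and spermatid markers, 5 (AKAP3, AKAP4, LDHC, PGK2 and SMCP) were not well above background on any array and 4 (PRM1, TNP1, ODF1 and ACR) were so on all 4. The summed processed signal of the list was 1015 and 889.8 in the high-fertile pools against 1023 and 811 in the low-fertile pools, so the groups overlapped, and PRM1, a protamine, was the 1 gene of 7 tested that passed, higher by 0.67 (adjusted p = 0.0231 in limma). None of 5 markers of testicular germ cells before the end of meiosis was well above background. The leukocyte list summed to 7421 and 7621 in the high-fertile pools against 11962 and 11817 in the low-fertile pools, of which PTPRC alone gave 6981 and 7126 against 11503 and 11388, and 4 of its 8 genes were well above background on all arrays while CD3E and CXCR4 were so on none. PTPRC passed with a difference of 0.78 (adjusted p = 0.0160 in limma), while LCP1 (-0.22), ITGB2 (-0.09), CD68 (0.03) and CD14 (0.40) did not, and the median of the 5 tested was 0.03. Of 6 epithelial markers 4 were well above background on all arrays, and of 3 red cell markers 1, that 1 being the globin HBA, with a difference of -0.17 (adjusted p = 0.705 in limma). HBB, another globin, was higher by 1.24, but it met the filter through the low-fertile pools only and no p is given. ALAS2 was detected on no array. The part of other cell types in the network values was not tested. In pooled RNA, fewer cells of a type and less RNA per cell cannot be told apart.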

How the data were processed

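The authors extracted the array images with Agilent Feature Extraction 11.5.1.1 (array design on Btau_3.1) and deposited linear intensities per spot, with background subtracted and surrogate values at background. They also deposited a table of log2 values shifted by the 75th percentile of each array. The marks for detection, outliers and saturation are further columns that the authors deposited. RNA was labelled with Cy3 after oligo dT priming and read on 4 arrays of 1 slide. Which bulls are in which pool is not given in the sources used here.

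Values were recomputed from the scanner output. Spots marked as outliers were left out, log2 processed signals of a probe's spots were averaged, and the 75th percentile of the array was subtracted. Tested were the 21033 probes marked well above background in both pools of a group or of both groups, using limma 3.58.1 (R 4.3.3) with Benjamini-Hochberg adjustment over all of them. All adjusted p-values given are from limma unless the test is named otherwise. Other steps used Python 3.11.15 with pandas 2.3.3. On simulated data with 200 changed probes among 21033, 93.8% were recovered and 3.76% of calls were false. With 2 pools a group, the smallest two-sided p of an exact permutation test is 0.333.

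The members and lists were chosen with earlier results of these data known, and MXI1 for its difference in this contrast. Named were all members with every probe, the 5 genes nearest in pattern to the bright MXI1 probe, and of each list the genes past the threshold, at most the 3 largest each way, except 1 gene that is not reported here, and 5 MYC target genes named after their values were seen. Older and newer symbols of 1 gene were counted once. Markers of sperm, earlier germ cells, leukocytes, epithelium and red cells were read. Probes and symbols were matched to RefSeq (ARS-UCD2.0) by accession, and its coordinates were not used.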

Additional observations from a re-analysis of the deposited data

How the results depend on the processing

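Over all 21033 tested probes 5632 passed the threshold, against 7295 with normexp and 7491 on the spike-in scale. For the probes of the 8 genes other than MXI1, the count past the threshold was 1. It went to 2 with normexp and to 2 with the spike-in scale. On that scale MXD3 A_73_P084721 no longer passed (0.29, adjusted p = 0.126 in limma) and the probes called were MAX A_73_P130316 and MNT. The count was 0 without a filter on dim probes (2 of 13 had an unadjusted p under 0.05 in limma), where 0 of all 51282 probes passed. It was 0 with the methods' t-test after adjustment (1 of 6), where 0 of all 21024 probes passed. With the filter set to detection on all arrays it was 0 (0 of 2), where 4339 of 12552 passed. The GC correction, which was added after the data were seen, gave 0 (2 of 6), where 4204 of 21033 passed. Leaving out 1 pool gave 0 to 2. The pathway genes past the threshold went from 18 to 0 without a filter (19 of 87 had an unadjusted p under 0.05 in limma) and to 0 with the methods' t-test (20 of 61), and to between 9 and 16 when a pool was left out, lowest with high-fertile pool 2 left out and 10 with pool 1 of that group left out. The bright MXI1 probe read -1.50 with normexp, -2.89 on the spike-in scale and -1.75 with the GC correction. Differences of MXD3, MXD4 and MAX changed sign. MXD3 A_73_101212 read 0.0113 with the percentile taken over probes detected on all arrays and 0.33 as the median of both MXD3 probes, and between -0.21 and 0.17 with a pool left out. MXD4 read 0.0582 with normexp and between -1.25 and 0.78 with a pool left out, and MAX between -1.02 and 0.0041. Quantile normalization, the deposited value table, outlier spots kept, bright patches left out and an intensity trend each left the count of network probes at 1. Pool numbers do not pair the samples (r = 0.0055 between the deviations of equally numbered pools), and with a replicate block the count was 1 and MXD3 A_73_P084721 had an adjusted p of 0.0393 in limma. Normexp was run with an offset of 50 added to every signal. The spike-in scale shifts the difference of every probe by the same amount, and on it the median of all tested probes was -0.39. Beyond these settings, the cause of the shifts was not tested. Signal over background is a limit, since 7 of 16 probes were detected on no array.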
